A study of Mus musculus with 20 samples.

Results

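Sites of C-to-U editing in genes that were listed in mouse cortex and in neither hippocampus nor cerebellum are described here. A gene was chosen if its symbol stood in the cortex list and was missing from the other 2 lists. This held for 648 of the 3163 genes of the cortex list (20.5%), with 1039 of its 17878 sites (5.81%). All 3 lists together held 3731 genes and 25978 sites. By the same rule 195 genes with 251 sites were listed only in hippocampus and 289 genes with 735 sites only in cerebellum.

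The mice carried a tamoxifen-inducible APOBEC1-YTH transgene, or as background control APOBEC1-YTHmut, and every mouse received 20 mg/kg tamoxifen by intraperitoneal injection once every 24 h for 5 days, with tissue taken 7 days after the last dose. There were 4 APOBEC1-YTH libraries and 3 APOBEC1-YTHmut libraries of whole cortex, 4 and 2 of hippocampus, and 4 and 3 of cerebellum, all poly(A)-selected from 900 ng of total RNA. For the 20 libraries there was 1 list of sites per region, with 1 level per site. The labels used here give neither the age or strain of the mice nor the promoter or Cre that drives the transgene, so the cells that carried the editor are not known from them.

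N6-methyladenosine (m6A) is the most abundant internal modification of messenger RNA. It is written on adenosines that are followed by a cytidine, often near the stop codon and in the untranslated end of the transcript, and in neurons it has been tied to the stability, local transport and translation of mRNAs. In APOBEC1-YTH the m6A-binding YTH domain carries the cytidine deaminase APOBEC1 to methylated RNA, where cytidines beside m6A are read as U; the YTHmut domain binds m6A poorly. A site is thus an edited cytidine and not a counted m6A, and its level is the deposited fraction, taken here as the share of edited reads at that position and given as a percent.

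The RefSeq promoter windows of build GRCm38.p6, which run from 250 bases before to 50 bases after a gene's start, happened to hold 5 of the 1039 sites, because a neighbouring gene starts close by. Their surroundings are shown so that the letters at the edited position can be read. The edited cytidine and the 2 bases before it are in capitals, and the strand is that of the listed gene.
Gm45606, chr11:75531465-75531494, minus strand, level 5.71%: ctctacccagttaAACtggagtgcccctcg
Mon1b, chr8:113642994-113643023, plus strand, level 5.71%: cacaacccacctcAACttctcactacctgg
Rbbp6, chr7:122970607-122970636, plus strand, level 1.96%: taacgtgtggactGACcgctactgactgca
Rbbp6, chr7:122970617-122970646, plus strand, level 4.46%: actgaccgctactGACtgcaccgcctgccc
Tbcb, chr7:30231833-30231862, minus strand, level 5.00%: tccgtggagaaagAACagcagcgattggct
The 2 Rbbp6 sites, in the gene of a ubiquitin ligase, lie so close that the stretches shown overlap, Tbcb encodes a tubulin folding cofactor and Mon1b a protein of endosome maturation. All 5 positions were a C after an A, in GAC at 2 sites and in AAC at 3. The same was true of all 34 sites of the other cortical genes that fell in such windows, with GAC at 22 and AAC at 12. Over the 32851 windows, read on both strands, 18.2% of cytidines followed an A, 4.68% stood in GAC and 4.46% in AAC, and 99.9% of windows held a GAC and 99.1% an AAC. The site caller and its filters are not given. A filter that kept only a C after an A, or only GAC and AAC, would fix this outcome. The shares over the windows are therefore no test of the m6A pattern. These are the letters at a few positions near other genes' starts and do not describe the remaining sites, for which no genome sequence was used.

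Most of the 648 genes had a single listed site. There were 478 genes with 1 site (73.8%), 95 with 2 and 75 with 3 or more (11.6%), with a median of 1 and a mean of 1.60 sites per gene. Among the 2515 cortical genes that were also listed elsewhere, 587 had 1 site (23.3%), 406 had 2 and 1522 had 3 or more (60.5%), with a median of 3 and a mean of 6.70. Genes with 5 or more sites numbered 25 among the cortex-only genes and 1049 among the others, and those with 10 or more numbered 4 among the cortex-only genes and 522 among the others. Read the other way, the share of cortical genes that were cortex-only was 44.9% for genes with 1 cortical site, 19.0% with 2, 12.5% with 3, 4.36% with 4 to 5, 4.24% with 6 to 9 and 0.760% with 10 or more. Against the 20.5% over all cortical genes, only the genes with 1 site were thus above it. The lists carry no read depth, and expression was not measured.

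**Figure D1:**
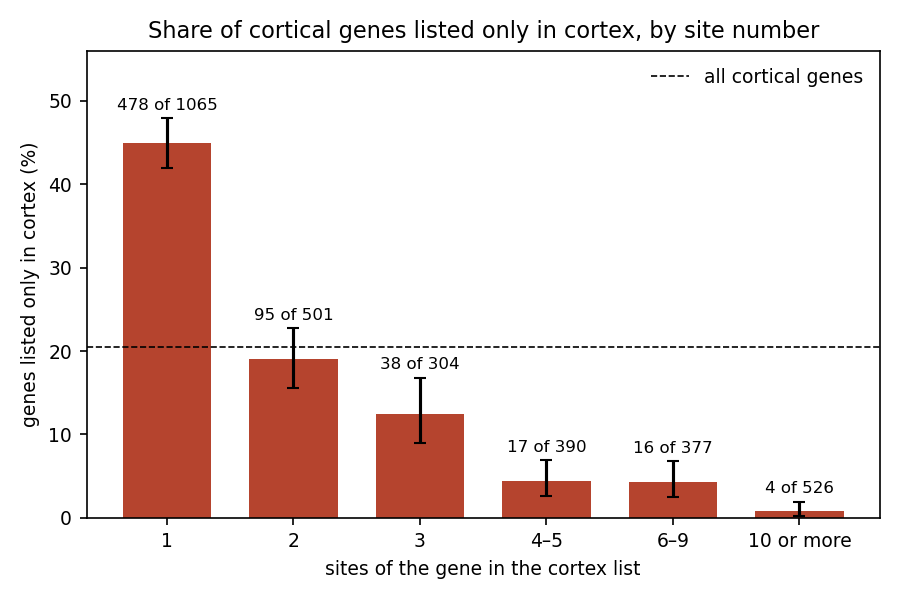
Share of cortical genes that were listed only in cortex (y axis, percent of genes) by the number of their sites in the cortex list (x axis). Bars are shares with 95% exact binomial intervals, which cover counting error only, the numbers above them count the genes, and the dashed line is the 20.5% over all cortical genes; the share falls from 44.9% at 1 site to 0.760% at 10 or more.

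The rule was met narrowly by most members. A single cortical site put 478 genes in, among them Vwa8 at 63.3%, Col5a1 at 56.5% and Cyp51 at 56.5%. A single site elsewhere kept out genes with many cortical sites. Plcxd2 had 16 cortical sites with a mean level of 5.84% and 1 cerebellar site at 2.35%. Rims2, a presynaptic active zone protein, had 14 cortical sites and 1 cerebellar site at 2.25%. Tmem44 with 13 cortical sites, the zinc transporter gene Slc30a4 with 12 and the protocadherin gene Pcdh10 with 9 each had 1 hippocampal site, at 6.42%, 3.23% and 10.5%. Absence from a list does not show that a transcript was unmethylated there. Hippocampus had 2 APOBEC1-YTHmut libraries where the other regions had 3, and how these entered the lists is not given. No member had a site within 50 nt of a site of another list under a different gene name, and no member stood in another list under another symbol of the same reference gene.

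Site levels were low in most of these genes. The median of the 1039 sites was 3.61% (quartiles 2.30% and 5.49%), and that of the 16839 sites of the other cortical genes was 2.87% (quartiles 1.83% and 4.76%). Levels of 10% or more were reached by 80 of the cortex-only sites (7.70%, exact 95% interval 6.15 to 9.49%) and 1090 of the others (6.47%), against 6.54% of all cortical sites. Levels of 5% or more were reached by 31.7% of the cortex-only sites and 23.1% of the others, and levels under 2% were found at 17.7% of the cortex-only sites and 29.4% of the others. The difference depended on how many sites a gene had. In genes with 1 site the medians were 3.70% in the cortex-only genes and 3.64% in the others, and with 2 sites 4.17% in the cortex-only genes and 3.03% in the others. With 3 to 5 sites they were 3.17% in the cortex-only genes and 2.86% in the others, and with 6 or more 3.48% in the cortex-only genes and 2.83% in the others. At 10% or more the higher share of the cortex-only sites held in genes with 2 sites, with 10.5% in the cortex-only genes and 8.50% in the others, and not elsewhere. In genes with 1 site 8.79% of the cortex-only sites and 17.0% of the others reached it, with 3 to 5 sites 5.88% of the cortex-only sites and 6.60% of the others, and with 6 or more 3.80% of the cortex-only sites and 5.85% of the others. All of these are 1 value per site from combined libraries, so no spread between animals can be set against them and none was tested; in whole tissue, fewer cells of a type and less RNA per cell cannot be told apart either.

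**Figure D2:**
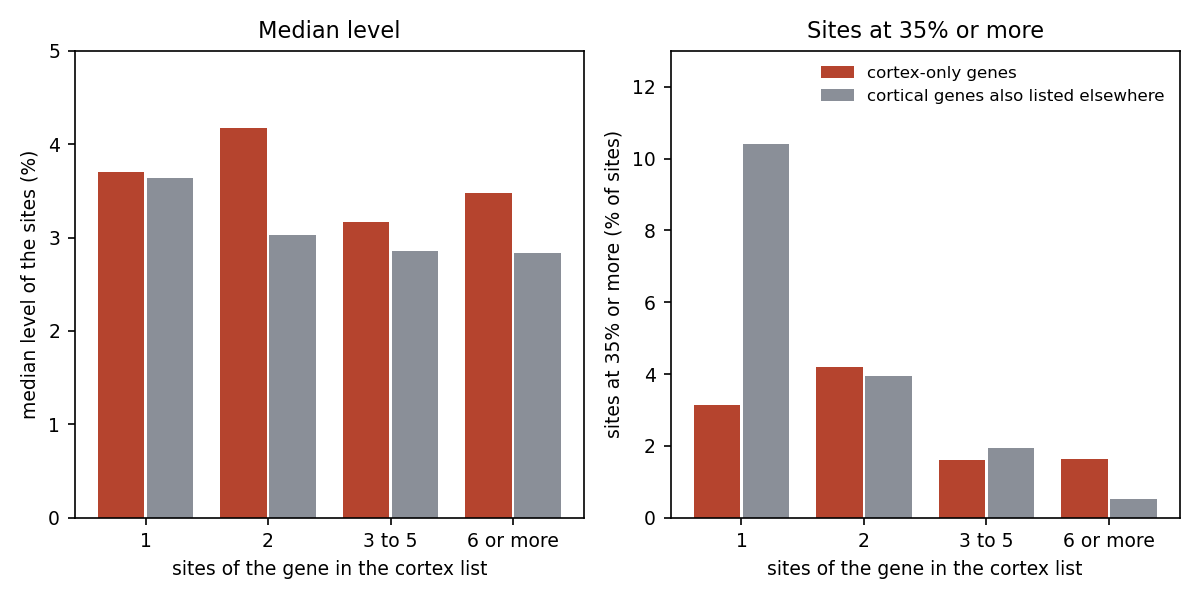
Median site level (left, percent) and share of sites at 35% or more (right, percent of sites) by the number of sites of the gene in the cortex list, for cortex-only genes (red, left bar) and cortical genes also listed elsewhere (grey, right bar). The medians are 3.70% and 3.64% in genes with 1 site, where 3.14% of cortex-only sites and 10.4% of the others are at 35% or more; bars are single values of the deposited lists with no replicate error.

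The cortical genes listed elsewhere differed among themselves by region. Genes listed in cortex and hippocampus but not cerebellum, 660 in number, had a median of 2 sites per gene and a median level of 3.03%. The 247 genes of cortex and cerebellum but not hippocampus had a median of 1 site and a median level of 3.57%, close to the 3.61% of the cortex-only sites, and 14.2% of their sites reached 10%. In the 1608 genes of all 3 lists the medians were 5 sites and 2.81%.

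Several of the genes with the most sites act at synapses or on neuronal excitability. Cbln2, which encodes a secreted cerebellin that links presynaptic neurexins to postsynaptic delta-type glutamate receptors, had 19 sites with levels from 2.94% to 10%, a median of 4.48% and a mean of 5.34%. They lay between 476 and 1442 nt before the annotated end of the gene, and 8 fell within 100 nt. No site stood out from the rest by its level. Its relative Cbln4 had 1 site, at 5.77%, and both were absent from the hippocampus and cerebellum lists.

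Voltage-gated potassium channels of the ether-à-go-go family carried many sites. Kcnh7, an ERG-type channel gene, had 9 sites at chr2:62694093-62702630 on the minus strand of mm10, the build of all coordinates here (the same assembly as GRCm38). Of these, 6 lay between 2.47% and 5.26%, and 3 stood far above them at 36.2%, 53.1% and 42.5%, at 1547, 1725 and 1978 nt before the gene's end. The 3 high sites spanned 431 nt, and a site at 3.19% lay among them, at 1805 nt. The mean of 16.8% thus describes none of the 9 sites, and the mean of the 6 lower ones was 3.24%. Kcnh1, the EAG-type relative, had 9 sites at chr1:192506199-192509761 on the plus strand, from 1.94% to 8.43% with a median of 5.06% and none at a high level. Its sites formed groups of 5 and 4, the first 3226 to 3960 nt and the second 398 to 852 nt before the end of the gene. Kcnf1, a modulatory potassium channel subunit, had 1 site at 2.63% and 1 at 40.2%. Of the 34 potassium channel genes in the cortex list, 7 were cortex-only (20.6%, against 20.5% of all cortical genes).

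**Figure D3:**
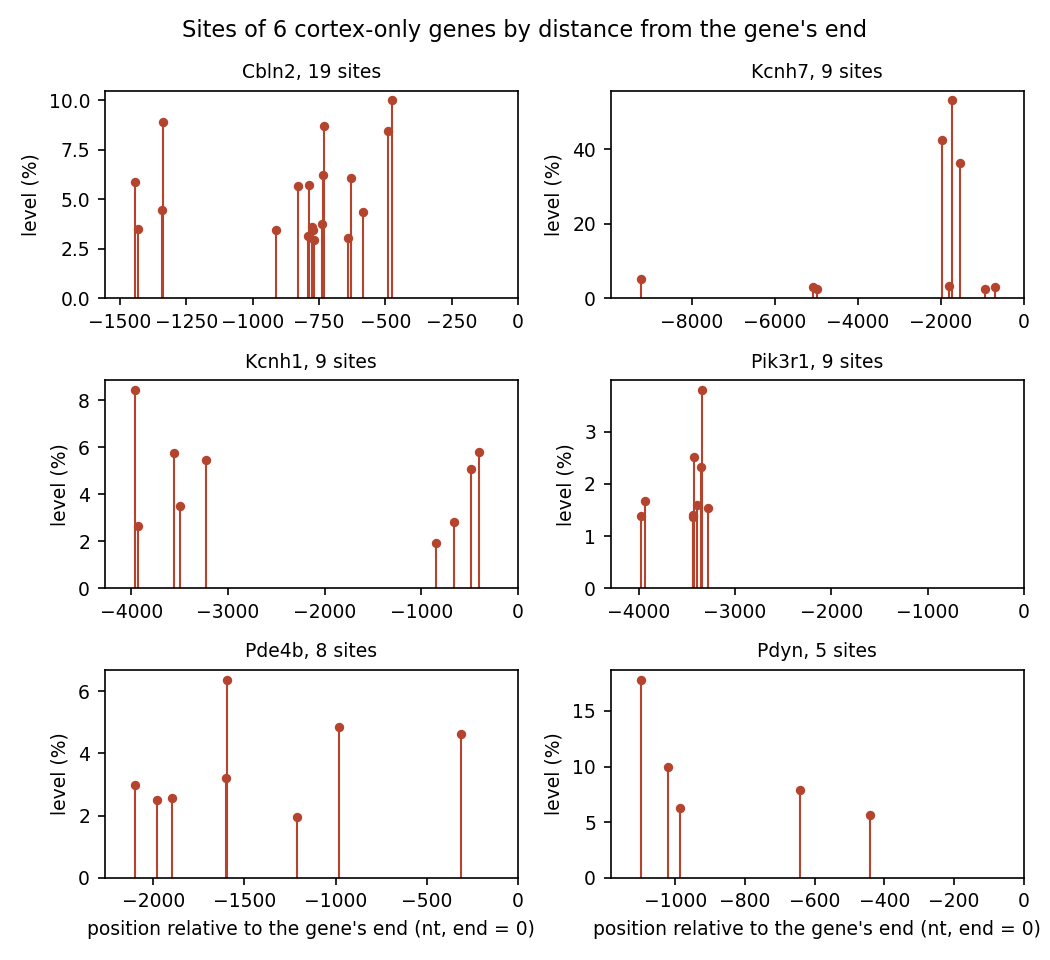
Level of each site (y axis, percent, scaled separately in each panel) against its position relative to the annotated end of the gene (x axis, nt, 0 at the end) in 6 cortex-only genes. Cbln2 has 19 sites within 1442 nt of the gene's end, Kcnh7 has 3 sites at 36.2% to 53.1% among 6 lower ones, Kcnh1 has 2 separate groups, and 6 of the 9 Pik3r1 sites lie within 100 nt.

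Cyclic nucleotide and phosphoinositide signalling supplied further genes with many sites. Pde4b, which encodes a cyclic AMP phosphodiesterase, had 8 sites from 1.96% to 6.36% (median 3.10%) at chr4:102605176-102606963, 312 to 2099 nt before its end. Pde4d had 1 site at 5.97%, Pde7b had sites at 12% and 4.88%, and Pde8b had 3 from 2.22% to 4.62%. Gucy1a1, a subunit of the nitric oxide receptor guanylate cyclase, had 1 site at 44.6% and 3 others at 1.82%, 2.33% and 6.45%. In all, 8 of 24 cortical genes of the cyclic nucleotide list were cortex-only (33.3%, interval 15.6 to 55.3%), among them Prkaa2 and Rapgef1, an energy-sensing kinase subunit and a Rap exchange factor that the list's wide pattern took in. Relatives were listed elsewhere too: Pde4a had 3 cortical sites and 1 hippocampal site, and Pde1a had 27 cortical and 25 hippocampal sites. Pik3r1, the main regulatory subunit of phosphoinositide 3-kinase, had 9 sites with low levels, from 1.36% to 3.80% (median 1.60%). They lay 3279 to 3976 nt before its end, at chr13:101684040-101684737, 6 of them within 100 nt. Ipcef1, which binds cytohesin exchange factors, had 9 sites from 1.82% to 6.17%, and Pik3r2 had 1 at 1.18%. Of 32 cortical genes of the phosphoinositide list, 4 were cortex-only (12.5%, interval 3.51 to 29.0%). Both this interval and that of the cyclic nucleotide list hold the 20.5% over all cortical genes.

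Among secreted ligands Pdgfa had 6 sites and Pdyn 5, and the others had 1 or 2. Pdyn, the precursor of the opioid dynorphins, had 5 sites, at 5.66%, 7.89%, 6.25%, 10% and 17.8%, from 440 to 1098 nt before the gene's end. Each of its sites was above the 3.61% median of the cortex-only sites. Pdgfa, a platelet-derived growth factor chain, had 6 sites from 1.14% to 5.49%, 5 of them within 100 nt at 857 to 904 nt before the end, and the related Pdgfb had 1 site at 16.3%. The fibroblast growth factor gene Fgf9 had 1 site at 16.7%, close to the highest Pdyn site. Tac1, the precursor of substance P, had 1 site at 5.13%. The list of neuropeptides, growth factors and other ligands had 8 cortex-only genes of 28 (28.6%, interval 13.2 to 48.7%), against 20.5% of all cortical genes, which the interval holds. Its other members were Cxcl12 with 2 sites and Nxph3 and Vegfa with 1 site each.

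Receptors for amines, acetylcholine and peptides were cortex-only in 8 of 23 cases (34.8%, interval 16.4 to 57.3%). Of the 8, 6 had 1 site, where 73.8% of all cortex-only genes did. The 8 included the adrenergic receptor gene Adra2c at 6.12%, the nicotinic subunit Chrna4 at 6.12%, the cholecystokinin receptor Cckbr at 3.70% and the histamine autoreceptor Hrh3 with sites at 2.26% and 2.33%. The list of glutamate receptors and auxiliary subunits gave 3 of 26 (11.5%, interval 2.45 to 30.2%). The list of GABA and glycine receptors gave 1 of 15 (6.67%, interval 0.169 to 31.9%). That gene was Kctd16, which is not itself a receptor gene and also stood in the ubiquitin list. The intervals of all 3 receptor lists hold the 20.5% over all cortical genes. Within these families single genes differed: Grid1 and Grm7 had 1 cortical site each and none elsewhere, while Grm5 had 22 sites in cortex and 26 in hippocampus. The T-type calcium channel gene Cacna1i had 4 sites in cortex alone, at 2.41%, 3.17%, 4.76% and 21.1%, and its relative Cacna1g had 12 in cerebellum alone.

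Synaptic organisers and adhesion proteins had 14 cortex-only genes of 64 (21.9%), close to the 20.5% over all cortical genes. Besides the cerebellins they held Lrrtm2, Lrrtm3 and Lrrtm4, leucine-rich postsynaptic partners of neurexins, with 1, 3 and 1 sites and mean levels of 4.88%, 4.07% and 6.06%. The fourth family member, Lrrtm1, had 2 cortical and 7 hippocampal sites. Nptx2, an activity-regulated pentraxin that clusters AMPA receptors, had 4 sites from 1.59% to 2.7%, whereas Nptx1 was listed in all 3 regions with 2, 5 and 7 sites in cortex, hippocampus and cerebellum. Axon guidance genes gave 8 of 21 (38.1%, interval 18.1 to 61.6%), and the interval holds the 20.5%. Of these 8, 6 had 1 site, where 73.8% of all cortex-only genes did. Plxnd1, a semaphorin receptor, had 3 sites from 1.79% to 3.41%, the netrin receptor Neo1 had 2 at 2.0% and 3.08%, and Sema4f, Sema5a, Epha5 and Rtn4r had 1 site each at 6.82%, 4.88%, 1.82% and 1.18%. Genes of the synaptic vesicle and exocytosis were cortex-only in 3 of 53 cases (5.66%, interval 1.18 to 15.7%), cadherins in 1 of 20 (5.00%) and postsynaptic scaffolds in 4 of 33 (12.1%).

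Transcription factors were among the genes with several sites. Cux2, a homeodomain factor of upper-layer neurons, had 6 sites from 1.68% to 4.76% at chr5:121858660-121860298, and its relative Cux1 had 1 site at 1.74%. Foxp1, a forkhead repressor, had 6 sites from 2.15% to 5.19% within 248 nt at chr6:98929667-98929915. Pknox2, a homeodomain factor of the TALE class, had 6 sites from 2.63% to 9.09%. Sox5 differed from these by its levels, with 2 sites at 40.5% and 52.4%, and Tshz1 had 1 site at 3.51% and 1 at 52.0%, while its relative Tshz2 had 14 cortical and 30 hippocampal sites. Lhx6, a homeodomain factor of interneurons from the medial ganglionic eminence, had 1 site at 15.6%. By list, 16 of 49 genes of the zinc finger list (32.7%, interval 19.9 to 47.5%) and 17 of 67 other transcription factors (25.4%, interval 15.5 to 37.5%) were cortex-only. Both intervals hold the 20.5% over all cortical genes. The zinc finger list goes by symbol and took in Znfx1, Zmat3 and Zfp622. It does not show that each of its genes is a transcription factor. A single site was found in 11 of the 16 zinc finger and 10 of the 17 other genes, against 73.8% of all cortex-only genes.

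Further genes with many sites had other roles. Fam131b had 10 sites from 1.01% to 6.11% (median 1.65%), 9 of them under 3%, and Fam163b had 7 from 1.35% to 4.04%. Itgav, the integrin subunit alpha V, had 7 from 2.33% to 8.16%, Rprm, encoding the cell-cycle arrest protein reprimo, had 7 from 1.26% to 7.07%, and Rtf1, a subunit of the PAF1 transcription elongation complex, had 7 from 1.90% to 5.43%. Hs3st2, a heparan sulfate sulfotransferase, had 6 sites from 1.96% to 5.26%, against 13 cortical and 25 hippocampal sites in its relative Hs3st4. The deubiquitinase gene Usp31 had 5 from 2.33% to 7.02%, and Pnpla8, encoding a calcium-independent phospholipase, had 5 from 1.87% to 4.35%, 4 of them within 100 nt. Mlip, which encodes a lamin-interacting protein, had 6 sites from 5.56% to 14.3%, all above the 3.61% median and all over 127 kb before the annotated end of the gene, inside it. In genes with 3 to 5 sites the highest level was a median of 2.28 times the lowest in the 55 cortex-only genes (quartiles 1.60 and 3.10) and 2.78 times in the 639 others (quartiles 1.98 and 4.12). Such a ratio can grow with the number of sites, which was not matched within this range. The 55 genes had 187 sites and the 639 had 2456.

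**Figure D4:**
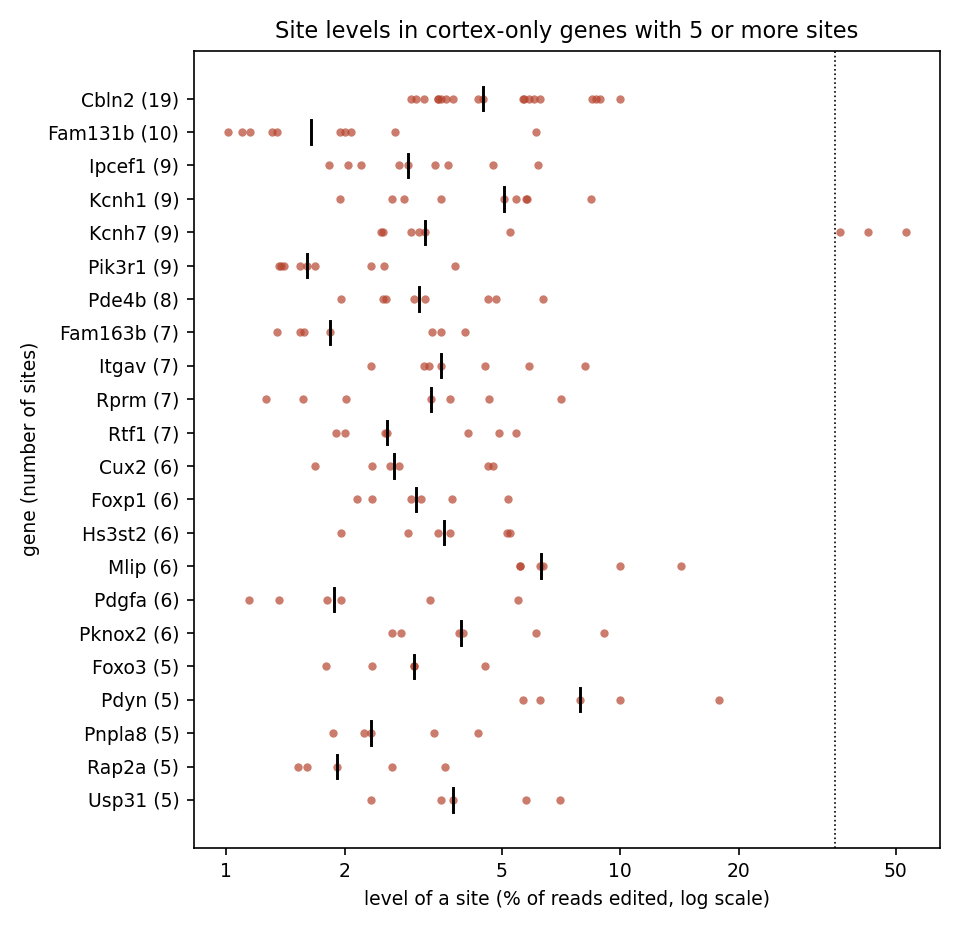
Level of each site (x axis, percent of reads edited, log scale) in 22 cortex-only genes with 5 or more sites, with the number of sites in parentheses; dots are sites, black bars are the gene's median, and the dotted line is at 35%. In these genes all sites lie below 35% except the 3 of Kcnh7 at 36.2% to 53.1%, and the sites of Pdyn and Mlip lie above those of Pik3r1.

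A group of 29 sites in 26 of the 648 genes reached 35% or more (2.79% of the sites), against 208 sites in 174 of the other cortical genes (1.24%). None of the 29 had another site within 50 nt, against 17 of the 208, and 15 of the 29 were the only site of their gene, against 61 of the 208. At all levels together, 217 of the 1039 cortex-only sites and 9638 of the 16839 others had another site within 50 nt. The only site of their gene were 478 of the 1039 cortex-only sites and 587 of the 16839 others. Within genes of 1 site the share at 35% or more was 3.14% in cortex-only genes and 10.4% in the others. High sites also lay farther from the gene's end: 10 of the 29 were over 5 kb before it (34.5%), against 12.7% of the 976 cortex-only sites under 35% that could be placed inside a gene, while the high sites of the other genes gave 87 of 205 (42.4%). The highest were in Vwa8, in Col5a1, a collagen V chain, in Cyp51, a sterol demethylase of cholesterol synthesis, in Cxadr, an adhesion protein of tight junctions, and in the histone gene H2aj, at 63.3%, 56.5%, 56.5%, 55.6% and 54.5%, each with 1 site. Next to these stood Kif21b, a kinesin, with 1 site at 54.5% and 1 at 2.20%. Ppil4 had sites at 14.9% and 46.1%, Rassf3 had 1 at 38% and 3 from 3.85% to 5.45%, and Cdh10, a cadherin, had 1 at 40.5%. Without the 29 the median of the cortex-only sites was 3.51%.

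Between 20% and 35% there were 8 sites. They were in Tmed5 at 32.4%, Dnaja4, a co-chaperone, at 31.8%, Pxdn, the matrix peroxidase peroxidasin, at 31.4%, Man2b1, a lysosomal mannosidase, at 29.0% and Fkbp9, a prolyl isomerase of the endoplasmic reticulum, at 28.6%, each the only site of its gene, in Cacna1i as given above, and in Ankrd33b and Nav1. Ankrd33b had sites at 27.3% and 36.4%, and Nav1, a microtubule-binding navigator protein, had sites at 22.2%, 37.8% and 2.99%, with the highest mean, 21.0%, among the cortex-only genes of 3 or more sites. Ppp1r12b, a myosin phosphatase subunit, had 3 sites at 7.41%, 15.8% and 2.86%.

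Of the m6A machinery itself, 2 of 7 cortical genes were cortex-only (28.6%, interval 3.67 to 71.0%, against 20.5% of all cortical genes). Wtap, a subunit of the m6A writer complex, had sites at 5.56%, 2.60% and 17.1% at chr17:12974680-12974818, about 8 kb before the annotated end of the gene, and Prrc2c, a proposed reader, had 1 site at 1.72%.

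In the 7 lists named next the shares ran from 17.7% to 25.7%, on both sides of the 20.5% of all cortical genes. Cortex-only were 20 of 87 protein kinases (23%), 11 of 56 phosphatases (19.6%), 23 of 127 small GTPases and their regulators (18.1%), 25 of 141 genes of the ubiquitin pathway (17.7%), 15 of 77 RNA-binding and splicing genes (19.5%), 14 of 62 chromatin regulators (22.6%) and 19 of 74 genes of translation and protein folding (25.7%). Rps6ka2, taken in by its symbol, was counted with both the kinases and the translation genes. Of all 648 cortex-only genes 478 (73.8%) had 1 site. By list these were 18 of the 23 small GTPase genes, 18 of the 25 ubiquitin genes and 16 of the 19 translation genes. Further counts were 14 of the 20 kinase genes, 13 of the 15 RNA-binding genes, 9 of the 14 chromatin genes and 4 of the 11 phosphatase genes. These counts carry no interval and were not tested. Motor proteins gave 1 of 32 (3.12%, interval 0.0791 to 16.2%), namely Kif21b, and the cytoskeleton 10 of 91 (11%, interval 5.40 to 19.3%). In 32 of the 35 functional lists the exact 95% interval held 20.5%, and in the other 3, for motors, the cytoskeleton and the synaptic vesicle, it lay below. These intervals cover counting error only, were not adjusted for the number of lists, and lists of genes with many cortical sites start from a lower share, so nothing particular to a list follows from them. In genes with 2 or more cortical sites the overall share was 170 of 2098 (8.10%). There axon guidance gave 2 of 12 (16.7%), cyclic nucleotide signalling 4 of 17 (23.5%), synaptic vesicle genes 0 of 41 and the cytoskeleton 5 of 76 (6.58%). A functional list took in 300 of the 648 genes (46.3%) and 1609 of the 3163 cortical genes (50.9%).

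**Figure D5:**
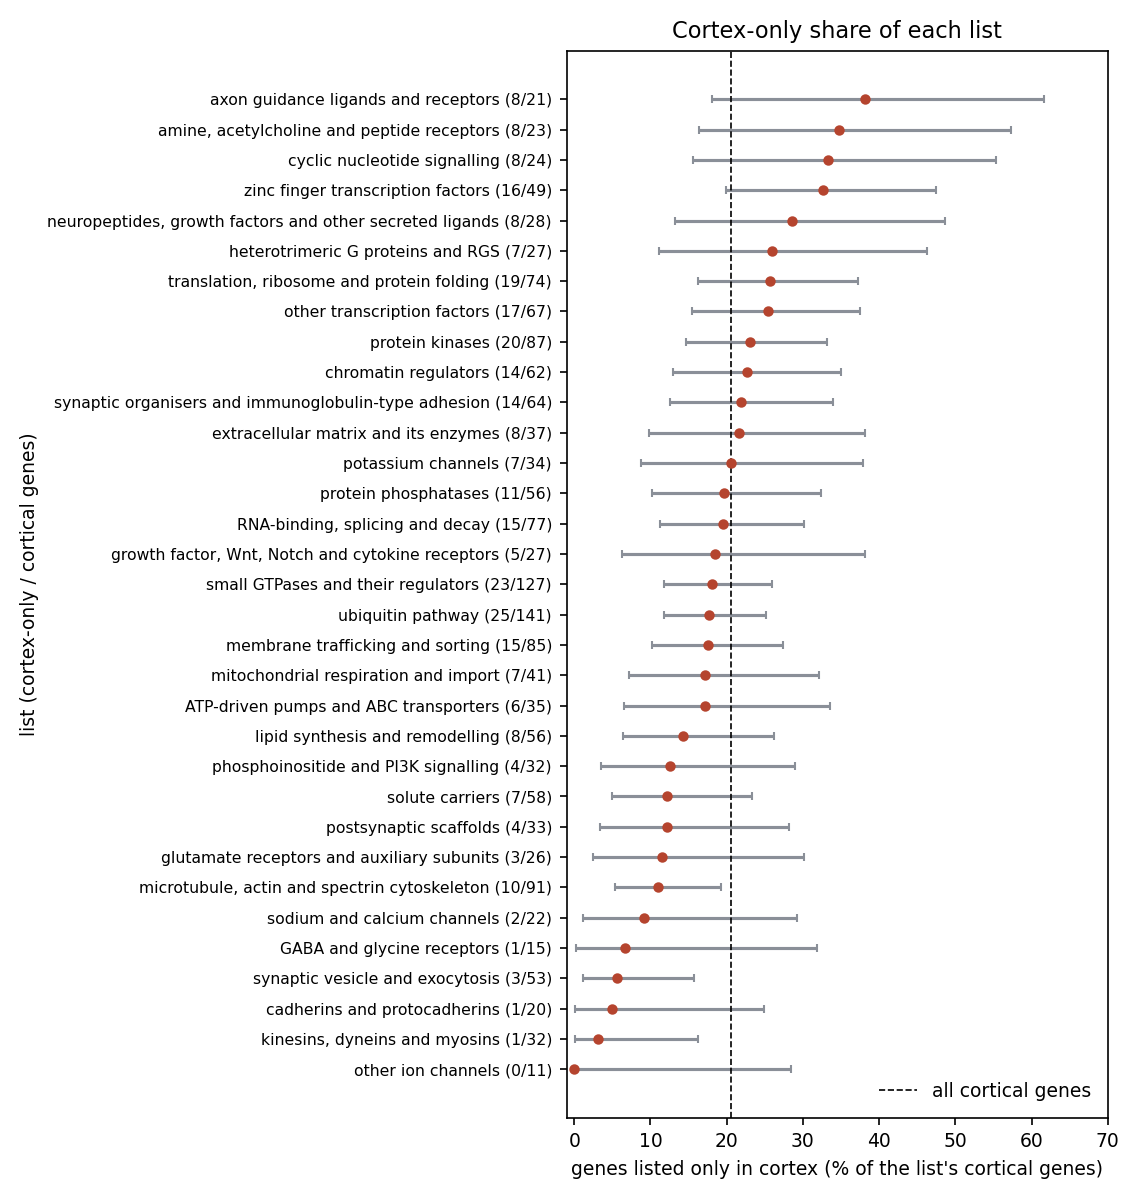
Cortex-only genes as a percent of the cortical genes of each functional list (x axis) for the 33 lists with 10 or more cortical genes, with cortex-only and cortical gene numbers in parentheses. Points are shares, bars are exact 95% binomial intervals that cover counting error only, and the dashed line is the 20.5% over all cortical genes; axon guidance is at 38.1% and the motor proteins are at 3.12%.

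Of the marker genes found in any region, the cortex list held all 21 upper-layer and pan-cortical excitatory markers, 11 of 15 deep-layer markers, 18 of 21 interneuron markers, 6 of 12 hippocampal field markers and 7 of 17 cerebellar markers, where it held 3163 of all 3731 genes. Of the 21 upper-layer and pan-cortical markers, 6 were cortex-only (28.6%, interval 11.3 to 52.2%), among them Cbln2, Kcnh7, Cux2, Lamp5 and Cux1, and of 11 deep-layer markers 2 (18.2%, interval 2.28 to 51.8%), Rprm and Hs3st2. Lamp5, a membrane protein of superficial layers, had 3 sites at 2.26%, 1.03% and 6.47%. Interneuron markers gave 4 of 18 (22.2%, interval 6.41 to 47.6%), namely Elfn1 with sites at 6.06% and 15.4%, Erbb4, Lhx6 and Tac1. Astrocyte, oligodendrocyte, precursor and vessel markers gave 0 of 31 in all, of which 15 were astrocyte markers (interval 0 to 21.8%), and the microglial receptor gene P2ry12, with 1 site at 4.35%, was the only marker of its list found in any region. None of the 13 hippocampal field or cerebellar markers in the cortex list could be cortex-only. All 12 hippocampal field markers stood in the hippocampus list and all 17 cerebellar markers in the cerebellum list. Each list's interval for the layer, interneuron, astrocyte, oligodendrocyte and vessel markers holds the 20.5% over all cortical genes. This was read list by list, and no interval was set for the 31 genes together. Markers of neighbouring forebrain tissue were present as well. Of 8 striatal markers 4 were cortex-only (interval 15.7 to 84.3%), among them Foxp1, Pdyn and Tac1. Of 7 markers of olfactory bulb and claustrum 2 were cortex-only (interval 3.67 to 71.0%), namely Tshz1 and Gnb4. Gnb4 had 3 sites from 4.55% to 6.67%. Both intervals hold the 20.5% over all cortical genes. The overall share in genes with 2 or more cortical sites was 8.10%. There 5 of 16 upper-layer and pan-cortical markers (31.2%) and 2 of 7 deep-layer markers (28.6%) were cortex-only. Striatal markers gave 3 of 6, and olfactory bulb and claustrum markers 2 of 6 (33.3%). Interneuron markers gave 1 of 14 (7.14%), and astrocyte, oligodendrocyte, precursor and vessel markers 0 of 13, 5, 3 and 4. These shares carry no interval and were not tested. Of the 13 striatal markers found in any region, Gng7, Pde10a, Penk, Ppp1r1b and Strip2 were missing from the cortex list. Several of these genes are also expressed in cortical neurons, and the part of the dissection in their listing was not tested.

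The sites lay toward the ends of genes in both sets. The median distance to the annotated gene end was 1295 nt in the cortex-only genes (quartiles 543 and 3115) and 1586 nt in the other cortical genes (quartiles 678 and 3152), counted along the genome with introns included. Within 1 kb of the end were 43.4% of the sites of cortex-only genes and 35.2% of those of the others, and within 5 kb 86.7% in cortex-only genes and 86.5% in the others. The sites of cortex-only genes were less crowded, with another listed cortical site within 50 nt at 217 of 1039 (20.9%) against 9638 of 16839 (57.2%). By the number of sites per gene the difference was smaller: in genes with 2 sites the shares were 23.2% in cortex-only genes and 24.6% in the others, with 3 to 5 sites 35.8% in cortex-only genes and 40.8% in the others, and with 6 or more 57.6% in cortex-only genes and 65% in the others. The 2 sites of 2-site genes lay a median of 183 nt apart in the 95 cortex-only genes and 217 nt apart in the 406 others. By chromosome, the cortex-only share of cortical genes ran from 13.2% on chromosome 19 to 26.3% on chromosome 6.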

How the data were processed

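Per the submitters' processing notes reads were aligned with STAR 2.7.5 to mm10. Not given in the sources used here were the site caller, its thresholds, the combining of libraries and the removal of YTHmut background. Each of the 3 deposited lists gives chromosome, start, end, gene symbol, level and strand of every site. The level is a deposited fraction, from 0.01 upward, read here as the share of edited reads over the combined APOBEC1-YTH libraries of a region and multiplied by 100. The position is the deposited end coordinate. Depth is unknown, so levels carry no interval and no test was made.

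Genes were matched between lists by symbol. The genes and lists described were chosen with earlier results of these data known. Named are the 20 genes with most sites, those with the highest levels (8 below and 5 at or above 35%, and 8 by mean level with 3 or more sites), up to 6 genes a list by site number, 5 by sites within 100 nt, and the nearest genes outside the rule; genes with predicted or clone names were replaced by the next, except beside a sequence, and others named were chosen after their values were seen. Some genes that this selects are not reported here. Functional and marker lists (35 and 12) are patterns of gene symbols. Gene type and ends came from RefSeq GRCm38.p6, which matched 638 genes by symbol and 3 by synonym, left 7 unmatched and put 1005 of the sites inside the named gene. Shares have exact Clopper-Pearson 95% intervals. Alternatives set other level minimums, site numbers, name matching and merging of near sites. Python 3.11.15, pandas 2.3.3, scipy 1.17.1 and matplotlib 3.10.9 were used, and the scripts were tested on simulated lists.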

Additional observations from a re-analysis of the deposited data

How the results depend on the processing

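The number of cortex-only genes followed the level and site number asked for. With a minimum level of 10% in every list 205 genes were cortex-only, 72 of them among the 648, and with 5% there were 455, 247 of them among the 648. With the minimum set in cortex alone there were 247 at 5% and 72 at 10%. At least 2 cortical sites left 170 genes and at least 3 left 75. Leaving out sites of 35% or more gave 645, and matching by position or by reference gene gave 648 each. Merging sites within 10 or 50 nt gave 991 and 913 sites, and the share of genes with 1 site became 75% and 77.8% (24.8% and 28.6% in the other cortical genes). The median level was 3.71% with 1 value per gene, against 3.46% in the other cortical genes, and 3.36% in genes with 3 or more sites, against 2.84%. With at least 2 cortical sites, 18 of 37 list shares moved beyond their interval, and the overall share was 8.10% there, against 20.5% over all cortical genes. No paired analysis was possible because each list gives 1 level per site and no value per mouse, and no mouse could be left out. The lists give no depth, so no upper limit can be set for a gene that is missing from one.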

Other observations

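Of the cortex-only genes 14 were long noncoding RNAs, with 40 sites, and 627 were protein-coding. A830036E02Rik had 19 sites with a mean level of 4.69%, all of them outside the span that RefSeq gives for the gene, so the deposited name and the reference differ there. Gm1976 had 6 sites with a mean of 5.65%. Gt(ROSA)26Sor, the transcript of the locus widely used for transgene insertion in mice, had 2 sites with a mean of 6.37%, while 5031425E22Rik and B930095G15Rik had 1 site each, at 41.8% and 35.4%. These genes were chosen after their values were seen. Clone or predicted names made up 36 of the 648 genes. Neither this count nor that of long noncoding RNAs was set against all cortical genes.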
